A study of Homo sapiens with 27 samples.

Results

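The respiratory chain of human HepG2 cells was followed at the level of messenger RNA through 85 genes that encode, with a few exceptions named below, the nuclear subunits of its 5 complexes. They were taken as every gene whose name on the arrays began with NDUFA, NDUFB, NDUFC, NDUFS, NDUFV, SDHA to SDHD, UQCR, COX4 to COX8 or ATP5, which gave 123 probes for 85 of the 17722 genes named on the arrays. HepG2 is a line from a human hepatocellular carcinoma that keeps many functions of liver cells. Cells were exposed for 48 h to 1 of 9 polycyclic aromatic hydrocarbons, compounds of fused aromatic rings, or to the solvent DMSO. The compounds were benzo[a]pyrene (BaP), chrysene (CHR), benzo[k]fluoranthene (BF), indeno[1,2,3-c,d]pyrene (IND), dibenzo[a,h]anthracene (DBA), 3-methylcholanthrene (3MC), benzo[a]anthracene (BA), phenanthrene (PH) and naphthalene (NP). All groups were the same unmodified line, doses are not given, and compounds were compared as applied. Each compound had 3 arrays, on which RNA of exposed cells carried Cy5 and RNA of DMSO-treated cells carried Cy3. Values are log2 ratios of Cy5 over Cy3, given as mean ± SD (n = 3 arrays) unless each array is listed.

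The respiratory chain sits in the inner mitochondrial membrane. Complex I oxidises NADH and complex II oxidises succinate, both passing electrons to ubiquinone, then complex III passes them to cytochrome c and complex IV passes them on to oxygen. Complexes I, III and IV pump protons, and complex V, the ATP synthase, uses the proton gradient to make ATP. In hepatocytes this chain supplies most of the ATP for gluconeogenesis and urea synthesis. Several core subunits of complexes I, III, IV and V are encoded by mitochondrial DNA, and the genes studied here are nuclear. The set held 37 genes of complex I, 4 of complex II, 7 of complex III, 17 of complex IV and 15 of complex V. A further 5 genes shared the name pattern but are not subunits of the chain, namely the assembly factor NDUFAF1, the pseudogene SDHAP2, COXFA4L2 (NDUFA4L2 on the arrays, a paralogue of the complex IV subunit COXFA4, formerly NDUFA4), EMC8 (COX4NB) and DMAC2L (ATP5S), and are counted apart.

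Promoters of nuclear respiratory genes are known for sites of the factors NRF1, GABPA and YY1, and the stretches below are shown for genes that the results turn on. RefSeq's table (GRCh38.p14) listed a window of 300 bases around the start for 69 of the 85 genes, and the first start listed was taken. Letters of the NRF1 core (GCGCATGCG) stood in 10 of these 69 windows (14.5%) and in 2.10% of the windows of 27305 genes, both strands searched. The GABPA core (CCGGAAG) stood in 20 of 69 (29.0%) against 10.7% of all, and the YY1 core (AAGATGGC) in 11 of 69 (15.9%) against 3.03%. A match is a description of the letters and not a measured site. NDUFA3, NDUFA8 and COX8A are genes that rose with several compounds, and NDUFA5 and SDHD fell with several. Capitals mark the core letters on either strand, adjacent matches run together, and the NDUFA5 window holds none of the 3.
NDUFA3 (chr19:54102605-54102904, plus strand): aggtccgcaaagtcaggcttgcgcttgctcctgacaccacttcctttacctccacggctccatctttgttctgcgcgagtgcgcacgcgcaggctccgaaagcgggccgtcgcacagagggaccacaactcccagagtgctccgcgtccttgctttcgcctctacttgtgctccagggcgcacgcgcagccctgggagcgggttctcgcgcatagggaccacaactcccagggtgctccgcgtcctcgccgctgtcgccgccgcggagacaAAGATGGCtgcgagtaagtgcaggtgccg
NDUFA8 (chr9:122159730-122160029, minus strand): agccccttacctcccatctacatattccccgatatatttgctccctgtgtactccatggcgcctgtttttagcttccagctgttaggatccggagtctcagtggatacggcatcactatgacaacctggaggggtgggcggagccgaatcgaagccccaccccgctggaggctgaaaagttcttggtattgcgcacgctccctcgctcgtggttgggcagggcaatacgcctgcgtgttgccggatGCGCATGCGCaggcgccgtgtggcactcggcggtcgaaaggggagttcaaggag
COX8A (chr11:63974370-63974669, plus strand): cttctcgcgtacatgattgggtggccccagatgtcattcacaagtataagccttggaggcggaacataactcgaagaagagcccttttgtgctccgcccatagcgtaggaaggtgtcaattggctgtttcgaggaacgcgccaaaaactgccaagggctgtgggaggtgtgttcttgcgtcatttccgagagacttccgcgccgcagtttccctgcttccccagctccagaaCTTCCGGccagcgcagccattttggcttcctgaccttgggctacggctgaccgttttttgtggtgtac
NDUFA5 (chr7:123601602-123601901, minus strand): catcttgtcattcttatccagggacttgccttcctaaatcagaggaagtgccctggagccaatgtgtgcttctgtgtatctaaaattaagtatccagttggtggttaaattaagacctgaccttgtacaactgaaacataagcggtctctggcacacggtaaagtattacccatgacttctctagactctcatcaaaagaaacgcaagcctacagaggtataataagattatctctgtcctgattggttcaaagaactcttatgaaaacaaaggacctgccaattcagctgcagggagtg
SDHD (chr11:112086623-112086922, plus strand): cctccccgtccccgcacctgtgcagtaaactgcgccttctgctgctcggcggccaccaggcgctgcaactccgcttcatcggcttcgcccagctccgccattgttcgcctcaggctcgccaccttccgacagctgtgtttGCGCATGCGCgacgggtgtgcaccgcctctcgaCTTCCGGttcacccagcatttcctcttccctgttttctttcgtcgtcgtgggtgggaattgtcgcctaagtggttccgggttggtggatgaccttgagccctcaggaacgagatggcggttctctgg

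The 27 arrays differed in brightness. Arrays of DBA, 3MC and NP, whose files shared a set of gene names of their own, had a median Cy5 signal of 70 to 164 units of intensity. The others had one of 341 to 1535. The label was checked against 9 hepatocyte markers, which all stood above background on 27 of 27 arrays, with a median Cy3 signal of 56691 units for ALB. Of 6 markers of other cell types, each was above background on 12 to 26 of 27 arrays. Their median Cy3 signal was 52 units for PTPRC, 56 for COL1A2 and 185 for PECAM1, while CD68 had 1475. BA array 1 stood apart. Over the respiratory chain genes its log2 ratios correlated at 0.165 and 0.146 with BA arrays 2 and 3, whereas arrays of each other compound correlated at 0.905 or more with each other. After loess, the counts of genes that rose with BA and that differed between CHR and BA are therefore also given without BA array 1. So are the values of the genes named for them. Other results with BA, such as those with median centring, include this array. It also entered the fit that gave the p-values of all compounds except IND. Whether the 3 arrays of a compound came from separate cultures is not given, so a p-value here speaks only of array-to-array spread, possibly technical. As no array had the dyes swapped, a gene's dye bias and its response to a compound cannot be told apart.

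Respiratory chain genes rose more often than they fell with BaP, CHR and BF, fell more often than they rose with NP, and, after loess, seldom passed with DBA, 3MC and BA. With each array centred on its median instead, 38, 11 and 28 genes rose with those 3 compounds, in place of 4, 3 and 2. Under that centring, 1634, 774 and 1070 of all 17718 genes tested rose with DBA, 3MC and BA. The words rose and fell are kept for genes with a limma adjusted p under 0.05 and a mean change of at least 1.5-fold. With BaP, 24 of 85 genes rose and 1 fell, where 15.0% of all 17718 genes tested rose and 9.96% fell. With CHR, 24 rose and 4 fell (11.8% and 12.2% of all genes), and with BF 32 rose and 7 fell (16.0% and 20.2%). The median log2 ratio of the 85 genes was 0.32 with BaP, 0.36 with CHR and 0.50 with BF, and that of all genes 0.03, 0.00 and -0.01. The genes that rose were 28.2% of the set with BaP and with CHR and 37.6% with BF, above the share of all genes, and those that fell were 1.18%, 4.71% and 8.24%, below it. In all, 47 genes rose with at least 1 of these 3 compounds and 11 with every one of them. The matching counts over all genes were not made, so 47 and 11 describe the set alone.

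The other compounds gave fewer calls. In bulk RNA, a change in all cells and a change in some of them cannot be told apart, nor can fewer cells of a kind and less RNA per cell. With IND, 6 of 84 genes rose and 2 fell (10.4% and 13.2% of 14621 genes tested on its platform), with a median of 0.15. With PH, 10 rose and 8 fell (10.5% and 7.88%), with a median of -0.06. With DBA, 4 rose and 3 fell (3.03% and 7.29%), and with 3MC 3 rose and 3 fell (3.63% and 7.56%). With BA, 2 rose and 0 fell (2.03% and 3.06%). Without BA array 1, 2 or 3 the number that rose was 3, 1 or 0. At the adjusted p alone, with no minimum fold, 5 genes of the set were lower with BA. Counts over all genes at that setting were not made. With NP the order was turned, as 5 genes rose and 16 fell (6.65% and 12.7%), with a median of -0.06.

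**Figure D1:**
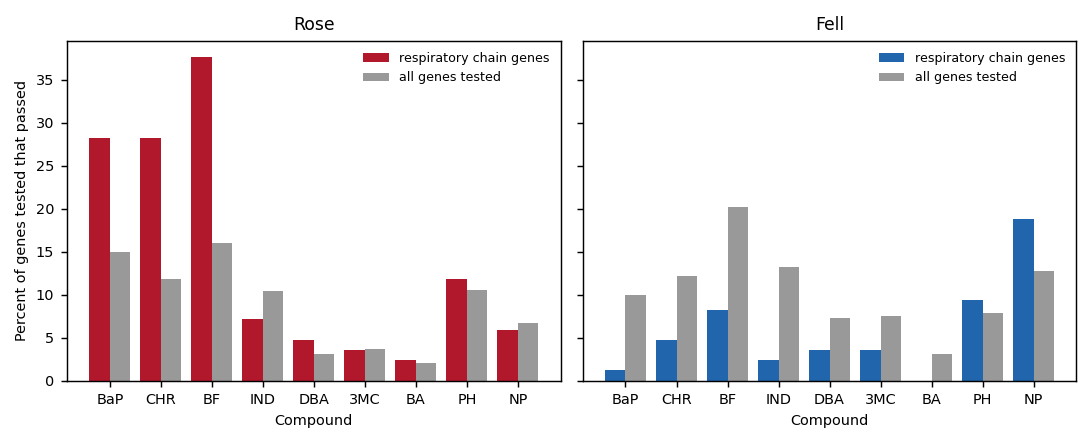
Percent of respiratory chain genes (coloured bars) and of all genes tested (grey bars) that rose (left) or fell (right) with each compound, at an adjusted p under 0.05 and 1.5-fold. The coloured bars exceed the grey ones by the widest margins for genes that rose with BaP, CHR and BF (28.2%, 28.2% and 37.6%), and among genes that fell the tallest coloured bar is that of NP (18.8%).

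Respiratory chain probes were among the brightest on every array. Their median intensity stood above that of 92.7% to 95.8% of genes, depending on the compound. The size of the shift depended on how each array's intensity trend was treated. With every array centred on its median in place of loess, a curve fitted through the ratios along intensity, 44 genes rose with BaP, 49 with CHR, 60 with BF and 22 with IND, and the set's median reached 1.26 with BF. Under that centring 3613, 2597 and 4343 of all 17718 genes rose with BaP, CHR and BF, and 1943 of 14621 with IND. The share of higher calls among all called genes of the set moved from 57.1% to 100% with DBA, from 75.0% to 95.7% with IND, from 82.1% to 96.8% with BF, from 85.7% to 96.1% with CHR and from 55.6% to 70.0% with PH. With 3MC it moved from 3 of 6 to 11 of 13 (84.6%). Over all genes this share moved from 60.0% to 72.7% with BaP, from 44.1% to 56.9% with BF, from 29.4% to 71.0% with DBA and from 34.4% to 16.8% with NP. The median of all genes moved by less than 0.1 in each case. Loess is the setting of every value that follows unless another is named.

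**Figure D2:**
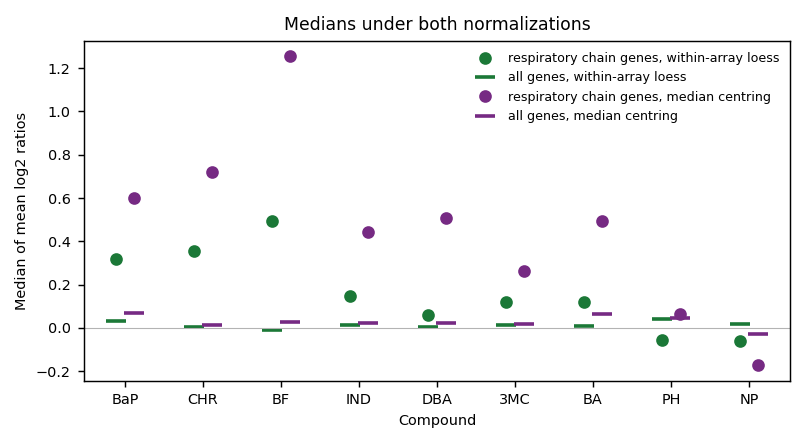
Median of the mean log2 ratios of respiratory chain genes (circles) and of all genes tested (dashes) for each compound, after loess within arrays (green) and after median centring (purple). The medians of all genes lie near 0 under both, while that of the respiratory chain genes with BF lies at 0.50 under loess and 1.26 under median centring.

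Of the 85 genes, 68 passed in at least 1 compound, 17 passed in both directions and 17 never passed. The matching counts over all genes were not made, so these describe the set alone. The 17 that never passed were SDHB, UQCRH, NDUFA9, NDUFB8, NDUFS3, NDUFS4, NDUFS7, ATP5MC2, ATP5ME, ATP5PF, ATP5PO, COX7A2L, the isoforms COX4I2, COX6B2, COX7A1 and COX7B2, and SDHAP2. Among the 8 compounds of the shared platform, limma's F test found unequal means for 83 of 85 genes at an adjusted p under 0.05 (89.8% of all genes). All 85 genes passed the filter on dim probes on the shared platform, and 84 on that of IND, where COX7B2 was not tested.

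**Figure D3:**
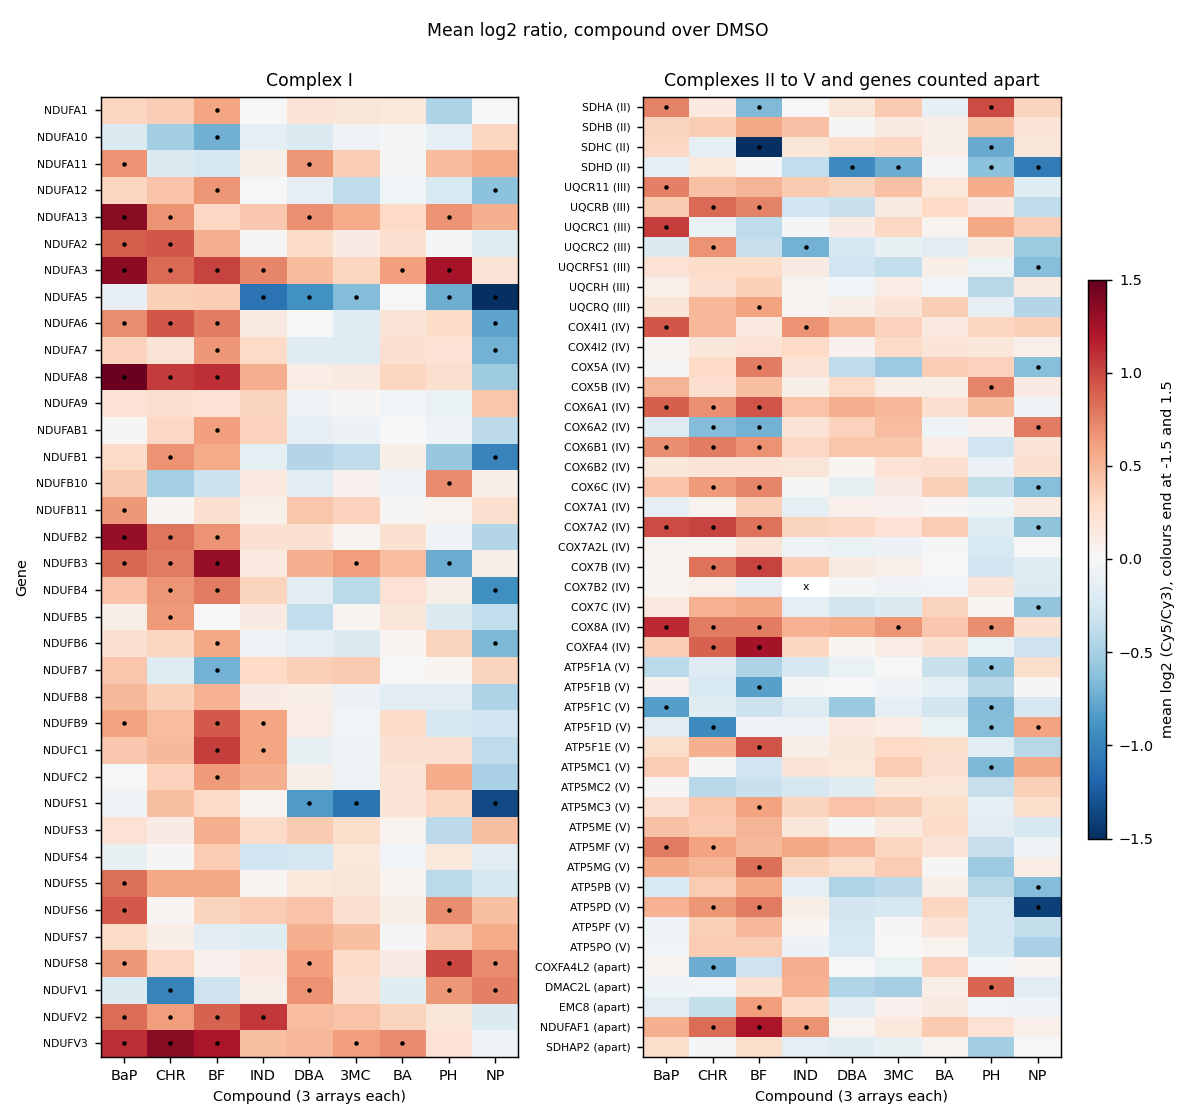
Mean log2 ratio of compound over DMSO (n = 3 arrays) for 84 of the 85 genes in rows and 9 compounds in columns, red for higher and blue for lower. Black dots mark genes that rose or fell, and the cross marks COX7B2, which was not tested with IND. Rises crowd in the BaP, CHR and BF columns, and NDUFA5, NDUFS1 and SDHD are blue with DBA, 3MC and NP.

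Complex I, the largest group with 37 of the 85 genes, held 15 of the 24 genes that rose with BaP, 12 of the 24 with CHR and 16 of the 32 with BF. That is 40.5%, 32.4% and 43.2% of complex I, beside 28.2%, 28.2% and 37.6% of the whole set. Of its 37 genes, 15 rose and 0 fell with BaP, 12 rose and 1 fell with CHR, and 16 rose and 3 fell with BF. Its median was 0.40, 0.36 and 0.54 with these compounds. With median centring 23, 22 and 30 of the 37 rose. Accessory subunits, which surround the catalytic core and take part in assembly and stability, were 30 of the 37 genes. They made up 13 of the 15 rises with BaP, 11 of the 12 with CHR and 15 of the 16 with BF. Of the 7 core subunits measured, which carry the flavin and the iron-sulphur clusters, 2 rose with BaP, 1 with CHR and 1 with BF. With NP, 7 accessory subunits fell and 0 rose, whereas 3 core subunits rose and 1 fell, with medians of -0.28 and 0.55.

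NDUFA3, an accessory subunit, rose with 6 compounds, more than any other gene of the set. Its log2 ratios were 1.39, 1.34 and 1.29 on the BaP arrays, 1.28, 1.21 and 1.21 with PH, and 0.97, 1.02 and 1.04 with BF. With CHR they were 0.87, 0.88 and 0.81, with IND 0.74, 0.75 and 0.70, and with BA 0.42, 0.68 and 0.73. With DBA, 3MC and NP, where the gene did not pass, they were 0.54, 0.41 and 0.46, then 0.23, 0.38 and 0.37, then 0.28, 0.20 and 0.13. All 27 arrays were above 0, and those of BaP and PH lay above those of all other compounds. The mean of 1.34 ± 0.05 with BaP was a 2.53-fold rise (adjusted p = 1.45e-15), and that of 1.23 ± 0.04 with PH a 2.35-fold rise (adjusted p = 1.44e-14). The DMSO channel moved too. Ranked among all probes of its array, the Cy3 signal of NDUFA3 lay at a median percentile of 84.7 with BaP and 81.2 with PH, against 90.6 to 97.2 with the other compounds, and its Cy5 signal at 94.7 and 91.3 with BaP and PH, against 95.9 to 98.2. The part of this in the ratios was not tested.

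NDUFA8 and NDUFV3 rose with BaP, CHR and BF. NDUFA8, an accessory subunit of the intermembrane space side, had 1.36, 1.51 and 1.56 on the BaP arrays, 0.99, 1.10 and 1.03 on the CHR arrays and 1.02, 1.09 and 1.16 on the BF arrays. Its mean of 1.47 ± 0.11 with BaP, a 2.78-fold rise (adjusted p = 8.83e-16), was the highest of the set with any compound. With NP its arrays gave -0.48, -0.57 and -0.55, below those of every other compound, a change that did not reach 1.5-fold. NDUFV3, an accessory subunit near the NADH oxidising module, had 1.31, 1.37 and 1.38 with CHR, 1.26, 1.24 and 1.17 with BF and 1.11, 1.18 and 1.05 with BaP. It also rose with 3MC (0.63 ± 0.08) and BA, where its arrays gave 0.18, 0.92 and 1.01, so that array 1 lay far below the other 2. Without array 1 the BA means of NDUFA3 and NDUFV3 were 0.71 and 0.97, and without array 3 both were 0.55 and neither passed. The probes of NDUFV3 disagreed. A second probe gave 1.17 with BF against 1.22 for the probe used, and another gave -0.87. The mean of the 3 was 0.51 with BF, which did not pass.

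**Figure D4:**
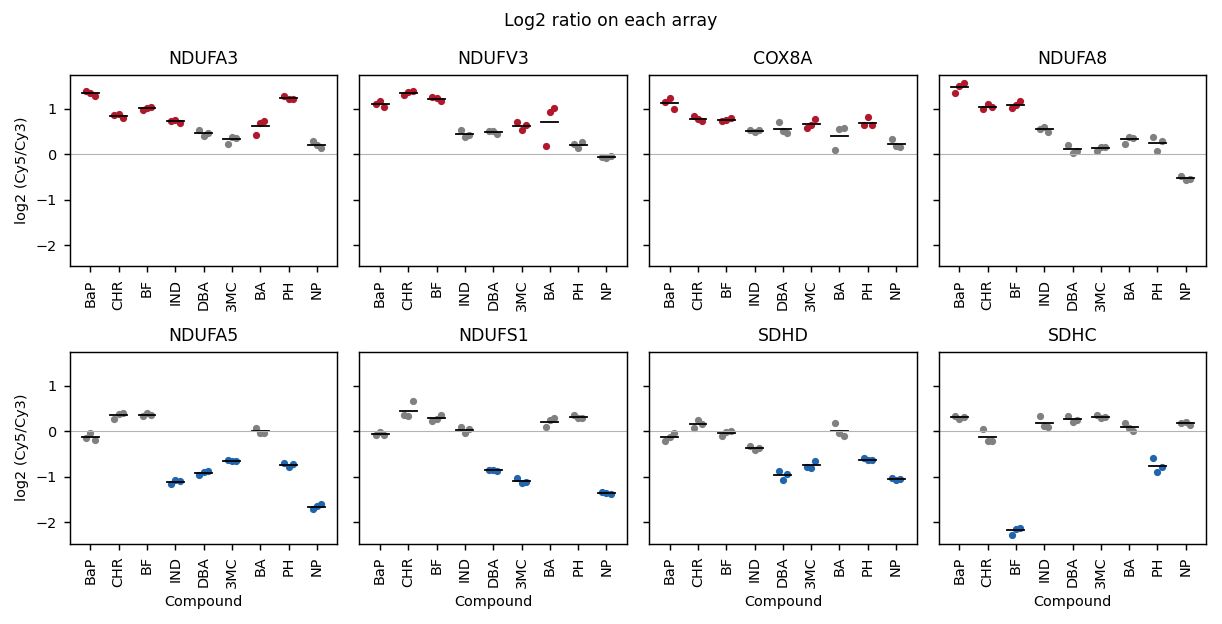
Log2 ratio on each of the 27 arrays for 8 respiratory chain genes, with a bar at each compound's mean. Red points belong to compounds with which the gene rose, blue points to those with which it fell and grey points to those where it did not pass. NDUFA5 runs from a mean of 0.37 with BF to one of -1.65 with NP, and the SDHC points with BF lie near -2.18, apart from all others.

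NDUFA13, NDUFB3, NDUFS8 and NDUFV2 each rose with 4 compounds. NDUFA13, also known as GRIM-19, rose with BaP (1.36 ± 0.10), CHR (0.67 ± 0.14), DBA (0.69 ± 0.12) and PH (0.67 ± 0.09). NDUFV2, a core subunit with an iron-sulphur cluster, rose with IND most (1.02, 1.11 and 1.06 by array) and with BaP, CHR and BF. NDUFS8, a core subunit with iron-sulphur clusters, had another pattern and rose with PH (1.03, 1.04 and 0.95 by array), NP, BaP and DBA. NDUFB3, an accessory subunit of the membrane arm, rose with BF (1.31 ± 0.04), BaP, CHR and 3MC and fell with PH, where its arrays gave -0.77, -0.74 and -0.71. NDUFB2, its neighbour by name in the membrane arm, rose with BaP (1.30 ± 0.09), CHR and BF and had -0.05 ± 0.07 with PH.

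NDUFA5, an accessory subunit of the peripheral arm, fell with 5 compounds. Its arrays gave -1.72, -1.64 and -1.61 with NP, -1.17, -1.07 and -1.09 with IND, and -0.96, -0.89 and -0.86 with DBA. With PH they gave -0.71, -0.78 and -0.71 and with 3MC -0.62, -0.66 and -0.65. With CHR and BF all 6 arrays were above 0, and the groups of arrays that fell did not overlap with those of BaP, CHR, BF or BA. The mean of -1.65 ± 0.06 with NP was a 3.14-fold fall (adjusted p = 1.27e-17). A second NDUFA5 probe gave -0.74 with IND and -0.66 with PH and was lower still with NP. Another probe gave 0.16 with NP, -0.02 with IND and 0.04 with PH, so the 3 probes of this gene disagreed. As the mean of its probes, NDUFA5 no longer passed with DBA (-0.41), 3MC (-0.33) or PH (-0.45).

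NDUFS1, the core subunit with the most iron-sulphur clusters, fell with NP, 3MC and DBA. Its arrays gave -1.33, -1.35 and -1.37 with NP, -1.02, -1.14 and -1.12 with 3MC, and -0.84, -0.86 and -0.86 with DBA, while its means with the other 6 compounds lay between -0.06 and 0.45. A second NDUFS1 probe gave -0.03, -0.36 and -0.26 with these 3 compounds, none of them a 1.5-fold change. Under median centring NDUFS1 with DBA (-0.47) and NDUFA5 with DBA (-0.51) and 3MC (-0.54) did not pass.

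NDUFV1, the core subunit that binds NADH and the flavin, fell with CHR (-0.96, -1.01 and -1.02 by array, adjusted p = 5.22e-15) and rose with NP (0.79, 0.76 and 0.72), DBA (0.76, 0.64 and 0.63) and PH (0.77, 0.56 and 0.63). Its fall with CHR was -0.57 under median centring, just short of 1.5-fold. Among all probes of an array, the NDUFV1 Cy3 signal had a median percentile of 99.1 with CHR and 80.5 to 97.1 with the other compounds. Its Cy5 signal stood at 95.7 with CHR and 85.4 to 97.1 with the others. The part of this in the ratios was not tested. NDUFA5, NDUFS1 and the complex II gene SDHD were the 3 genes of the set that fell with all of DBA, 3MC and NP. How many of all genes did so was not counted. DBA, 3MC and NP are the compounds of the dimmer arrays. Over the respiratory chain probes, the DMSO channels of those arrays had rank correlations of 0.937 to 0.995 with each other and of 0.492 to 0.767 with those of BaP, CHR, BF, BA and PH. Among BaP, CHR, BF, BA and PH they ran from 0.546 to 0.996. Over all probes they were 0.879 to 0.993 among these 5 and 0.604 to 0.755 between them and DBA, 3MC and NP. The part of this in the results was not tested.

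Complex II, which is also succinate dehydrogenase of the citric acid cycle, showed no common direction among its 4 subunits. SDHC, a membrane anchor that helps bind ubiquinone and haem, had the largest change of any gene in the set. Its arrays gave -2.28, -2.14 and -2.12 with BF, a 4.53-fold fall (mean -2.18 ± 0.09, adjusted p = 1.67e-18), and -0.59, -0.89 and -0.79 with PH. Its means with the other 7 compounds lay between -0.13 and 0.32. It was measured by 1 probe. SDHD, the other anchor, fell with NP (-1.03, -1.07 and -1.04), DBA (-0.86, -1.06 and -0.93), 3MC (-0.79, -0.81 and -0.64) and PH (-0.59, -0.64 and -0.63), and its arrays with BaP, CHR, BF and BA lay between -0.22 and 0.25. The 3 other SDHD probes were also negative with all 4 compounds, at -0.30, -0.94 and -0.67 with NP. Under median centring SDHD gave -0.55 with DBA and -0.56 with PH and did not pass there.

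The catalytic subunits of complex II did not follow the anchors. SDHA, the flavoprotein that oxidises succinate, rose with PH (1.08, 1.04 and 0.82) and BaP (0.76, 0.72 and 0.75) and fell with BF (-0.71, -0.63 and -0.66). A second SDHA probe gave 0.85, 0.70 and -1.36 with these compounds. SDHB, the iron-sulphur subunit, passed with no compound, and its highest mean was 0.58 ± 0.02 with BF. With PH, both anchors fell while SDHA rose. The median centring setting turned the direction of SDHA with BF to 0.05, and there the gene no longer passed.

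Complex III had 7 genes, of which 2 rose with each of BaP, CHR and BF, and 3, 6 and 5 with median centring. UQCRC1, a core protein of the matrix side, rose with BaP, at 1.08, 0.97 and 1.05 by array (mean 1.03 ± 0.06, adjusted p = 9.94e-13). It had 0.46, 0.69 and 0.60 with PH, just short of 1.5-fold, and -0.47, -0.36 and -0.31 with BF. UQCRC2, the other core protein, went another way. It rose with CHR (0.63, 0.73 and 0.65) and fell with IND (-0.70, -0.62 and -0.80), where median centring gave -0.37 and no call. UQCRFS1, the Rieske iron-sulphur protein, fell with NP (mean -0.64), and UQCRB rose with CHR (0.85 as a mean) and BF. UQCRH, the hinge protein, never passed.

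In complex IV, 5 of 17 genes rose with BaP, 7 with CHR and 8 with BF, and 4 fell with NP. With median centring 8, 11 and 12 rose and 2 fell. COX8A, a small subunit found in most tissues, rose with 5 compounds. Its arrays gave 1.14, 1.24 and 0.99 with BaP, 0.85, 0.78 and 0.72 with CHR, 0.74, 0.75 and 0.80 with BF, 0.58, 0.64 and 0.78 with 3MC, and 0.63, 0.82 and 0.64 with PH. It was above 0 on all 27 arrays. Its Cy5 spot was saturated on all BaP and BF arrays and on 2 of 3 CHR arrays, so that its Cy5 signal was cut off there. Its rises after loess were 2.18-fold with BaP and 1.70-fold with BF. Whether saturation makes these values lower bounds after loess was not tested. COX6A1 was likewise saturated with BaP (1.87-fold after loess), as were NDUFB9 with BaP and ATP5MC3 with BF.

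Several complex IV subunits come as a common isoform and a tissue-restricted one. The common COX4I1 rose with BaP (0.92, 0.94 and 0.94) and IND (0.59, 0.68 and 0.77), while its hypoxia-associated counterpart COX4I2 stayed between 0.03 and 0.30 in its means and was not well above background in either channel on any CHR array. COX6A1 rose with BaP, CHR and BF (0.90 ± 0.11, 0.69 ± 0.13 and 0.94 ± 0.01), but a second COX6A1 probe gave 0.04, -0.05 and 0.01, and the mean of both did not pass. The muscle and heart isoform COX6A2 fell with CHR and BF and rose with NP. The fall of COX6A2 with CHR rested on arrays 2 and 3 (-1.04 and -1.09), as array 1 gave 0.19, and without array 2 or 3 it was -0.45 or -0.43 and did not pass. COX6B1 rose with the same 3 compounds as COX6A1 (0.69 ± 0.05, 0.77 ± 0.08 and 0.67 ± 0.05), and the testis isoform COX6B2 had means between -0.09 and 0.25.

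COX7A2 rose with BaP, CHR and BF, at 0.98, 0.96 and 1.00, at 0.98, 1.06 and 1.00, and at 0.79, 0.85 and 0.81, and fell with NP, at -0.54, -0.64 and -0.63. The muscle isoform COX7A1 had its highest mean, 0.35, with BF, where it stood above background on 1 array in each channel. COX7B rose with BF (1.00, 1.00 and 1.05) and CHR (0.58, 0.93 and 0.92) but had 0.03 ± 0.08 with BaP, and COX7B2 was not above background in Cy5 with 6 of the compounds it was tested with. COXFA4, once counted with complex I, rose with BF (1.28, 1.24 and 1.20) and CHR (0.73, 0.99 and 0.92). COXFA4L2, its paralogue, which is known as a hypoxia-induced gene, fell with CHR (-0.75 ± 0.08). The COXFA4L2 probe was dim there, at a median percentile of 36.1 in Cy3 and 26.6 in Cy5 among all probes of an array.

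Complex V genes were low with PH. There, all 15 genes had means below 0, with a median of -0.35, and 4 fell, where the median of all genes was 0.04. These were the F1 subunits ATP5F1A, ATP5F1C and ATP5F1D and the c-ring gene ATP5MC1, whose arrays gave -0.67, -0.67 and -0.70 (adjusted p = 2.56e-11). With median centring, 11 of the 15 were below 0 and 2 fell, and ATP5MC1 gave -0.58 and did not pass. Among all probes of an array, the median Cy3 percentile with PH was 99.4 for ATP5F1A and 95.8 for ATP5MC1. Both lay above those of every other compound, which reached 99.1 and 94.8. Their Cy5 percentiles with PH, 97.4 and 91.9, lay within the range of the others. The Cy3 percentile of ATP5F1C with PH (88.6) lay within that range and that of ATP5F1D (60.2) below it. The part of this in the ratios was not tested. With BaP 1 of 15 rose and 1 fell, with CHR 2 rose and 1 fell, and with BF 4 rose and 1 fell. With median centring 7, 9 and 10 of the 15 rose with these compounds. ATP5F1C, the rotor shaft of F1, was the 1 gene of the set that fell with BaP, at -0.67, -0.88 and -0.92 by array.

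ATP5F1B, the catalytic beta subunit, fell with BF (-0.88, -0.76 and -0.82) and had 0.11 there with median centring. ATP5F1E, the small epsilon subunit, rose with BF (0.97, 0.95 and 0.90). ATP5F1D, the delta subunit of the central stalk, fell with CHR (-0.60, -1.09 and -1.18) and PH and rose with NP (0.62, 0.64 and 0.56), and its second probe gave -0.87, -0.82 and 0.46. The ATP5F1D Cy3 signal had a median percentile of 95.8 with CHR and 60.2 to 93.7 with the other compounds. Its Cy5 signal stood at 89.5 with CHR and 53.4 to 93.3 with the others. The part of this in the ratios was not tested. ATP5PD, a peripheral stalk subunit, had the second lowest mean of the set with NP, at -1.33, -1.47 and -1.41 by array (-1.40 ± 0.07, a 2.65-fold fall), while it rose with CHR (0.53, 0.75 and 0.69) and BF (0.73, 0.77 and 0.84). The lowest array of ATP5PD with any other compound was -0.38, with PH.

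ATP5PD was 1 of 10 genes that fell with NP and rose with BaP, CHR or BF, which are 10 of the 16 that fell with NP and 10 of the 47 that rose with those compounds. The others were COX5A, COX6C, COX7A2, NDUFA6, NDUFA7, NDUFA12, NDUFB1, NDUFB4 and NDUFB6. The remaining 6 genes that fell with NP were NDUFA5, NDUFS1, SDHD, UQCRFS1, COX7C and ATP5PB. How many of all genes fell with NP and rose with BaP, CHR or BF was not counted. Whether these overlaps set the respiratory chain apart was therefore not tested.

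The compounds differ in the number and arrangement of their rings, and 4 pairs were compared, as applied, by contrasts in the same limma fit with p-values adjusted over all genes. BaP and BF have the same number of rings, but BF, unlike BaP, includes a five-membered ring. Between them 22 of 85 genes differed (35.2% of all genes), 12 higher with BaP and 10 lower. SDHC differed most, at 0.31 with BaP and -2.18 with BF (difference 2.49, 95% interval 2.33 to 2.64). UQCRC1 (difference 1.41, 1.25 to 1.57) and SDHA (1.41, 1.29 to 1.53) were also higher with BaP, while COX7B (-0.99, -1.23 to -0.74) and COXFA4 (-0.88, -1.11 to -0.64) were lower.

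PH has fewer fused rings than BaP. Of 85 genes, 29 differed (21.7% of all genes), 27 of them higher with BaP. The 2 lower ones were NDUFV1 (-0.87, 95% interval -0.98 to -0.76) and DMAC2L (-0.94, -1.08 to -0.80). NDUFB3 differed most, at 0.86 ± 0.04 with BaP and -0.74 ± 0.03 with PH (difference 1.60, 1.42 to 1.78), followed by NDUFB2 (1.36, 1.24 to 1.47). The genes that differed included 17 of complex I and 5 of complex V. NDUFA3 was not among them.

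**Figure D5:**
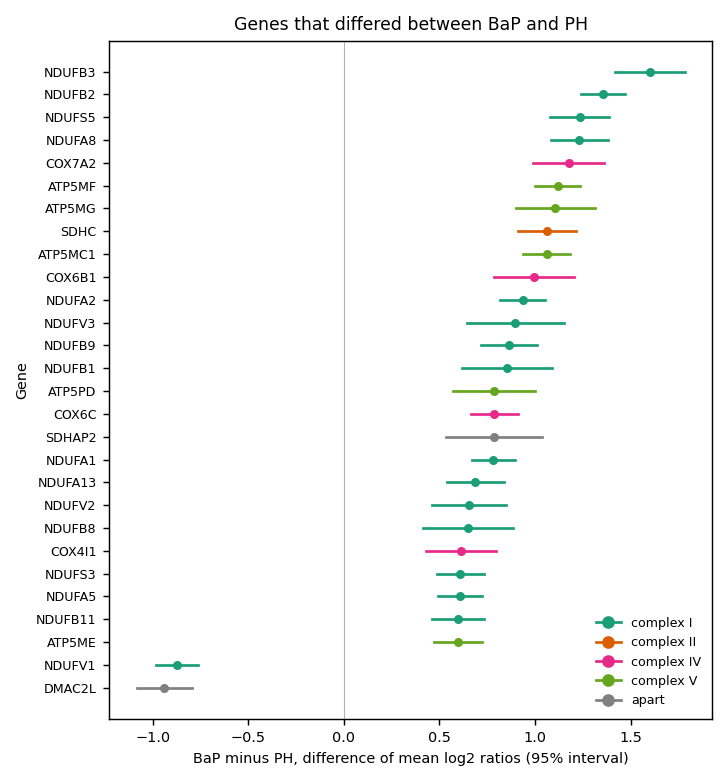
Difference of mean log2 ratios, BaP minus PH, for 28 of the 29 respiratory chain genes that differed, coloured by complex. Lines are 95% intervals from the standard errors of the limma fit, by a normal approximation. All but NDUFV1 and DMAC2L lie to the right of 0, led by NDUFB3 (1.60) and NDUFB2 (1.36).

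CHR and BA are isomers with their fused rings in different arrangements. They differed in 14 of 85 genes (18.6% of all genes), 9 higher with CHR. UQCRC2 (difference 0.84, 95% interval 0.65 to 1.02) and COX7B (0.82, 0.57 to 1.06) were highest, and COXFA4L2 (-1.10, -1.35 to -0.85) and ATP5F1D (-0.86, -1.08 to -0.65) lowest. Without BA array 1 the count was 11, and these differences were 0.71, 0.59, -1.25 and -0.77. The COXFA4L2 probe was dim, at median Cy3 percentiles of 36.1 with CHR and 24.2 with BA. 3MC, unlike DBA, carries a methyl group and an added small ring. The 2 differed in 0 of 85 genes by the call rule (2.27% of all genes), and in 17 at the adjusted p alone, a setting not counted over all genes. The largest differences were UQCRB at -0.47 (95% interval -0.63 to -0.30) and NDUFV1 at 0.44 (0.33 to 0.54), and no interval over the 85 genes reached past -0.63 or 0.54. This does not show that they act alike.

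Other mitochondrial gene lists were read beside the subunits, and the share of all genes tested that rose and fell follows each first count. Of 85 genes of the mitochondrial ribosome and its translation factors, 32 rose and 4 fell with BF (16.0% and 20.2% of all genes), 17 rose and 1 fell with BaP (15.0% and 9.96%), and 5 rose and 16 fell with NP (6.65% and 12.7%). With CHR, where 24 of the 85 subunit genes rose, 9 ribosomal genes rose and 3 fell (11.8% and 12.2% of all genes). Their medians were 0.49 with BF, 0.19 with BaP, -0.16 with NP and 0.17 with CHR. MRPS6 rose with BF (1.95 ± 0.05), CHR (1.09 ± 0.10) and IND (1.29 ± 0.03), and MRPL50 fell with NP (-1.28 ± 0.06). Of 41 assembly factors, 14 rose and 4 fell with BF, 8 rose and 2 fell with BaP, 3 rose and 2 fell with CHR, and 2 rose and 8 fell with NP, beside the same shares of all genes. COX11, which delivers copper to complex IV, fell with NP (-1.84 ± 0.03), 3MC and DBA (-0.90 ± 0.02). FOXRED1, a complex I assembly factor, fell with BF (-2.73 ± 0.07) and CHR (-0.97 ± 0.25).

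Of 26 genes of the citric acid cycle and pyruvate entry, 3 rose and 5 fell with BaP (15.0% and 9.96% of all genes), 0 rose and 4 fell with CHR (11.8% and 12.2%), and 2 rose and 5 fell with BF (16.0% and 20.2%). The 15.4% that fell with CHR and the 19.2% that fell with BF lay near the share of all genes. CS, citrate synthase, fell with BF (-2.17 ± 0.02), CHR (-1.40 ± 0.15), BaP (-1.22 ± 0.11) and PH (-0.76 ± 0.02), and OGDH fell with BF (-2.41 ± 0.12). Of 21 genes for cytochrome c, carriers and uncoupling, 6 rose and 0 fell with CHR, 2 rose and 2 fell with BaP, and 3 rose and 2 fell with BF, beside these same shares. UCP2, an uncoupling protein homologue, rose with BaP (1.58 ± 0.06), CHR, BF, 3MC and PH.

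Of 16 regulators of mitochondrial biogenesis, 1 rose and 3 fell with BaP (15.0% and 9.96% of all genes), while 3 rose and 0 fell with PH (10.5% and 7.88%). Those that rose with PH were POLRMT, the mitochondrial RNA polymerase (1.32 ± 0.09), ESRRA (0.71 ± 0.08) and PPRC1 (0.60 ± 0.07). PPARGC1A, the coactivator PGC-1 alpha, fell with BaP (-1.25 ± 0.05), DBA (-1.08 ± 0.14), 3MC (-0.78 ± 0.06), BF (-0.77 ± 0.11), CHR (-0.75 ± 0.15) and IND (-0.65 ± 0.13), and GABPB1, a partner of GABPA, fell with 5 compounds. NRF1 itself fell with CHR (-0.71 ± 0.08). Of 14 hypoxia genes, 6 rose and 0 fell with BF (16.0% and 20.2% of all genes), among them ADM (2.16 ± 0.06). With BaP and IND 5 rose and 1 fell each (15.0% and 9.96% of all genes with BaP, 10.4% and 13.2% with IND). With PH 4 rose and 0 fell (10.5% and 7.88%), and with CHR 3 rose and 1 fell (11.8% and 12.2%). With DBA and 3MC 2 rose and 3 fell each (3.03% and 7.29% of all genes with DBA, 3.63% and 7.56% with 3MC). With NP 2 rose and 4 fell (6.65% and 12.7% of all genes).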

How the data were processed

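RNA of HepG2 cells was hybridised to 2-colour Agilent arrays, with Cy5 for exposed and Cy3 for DMSO-treated cells per the labels. The deposited scanner output holds spot and local background intensity in both dyes, not normalised, and the percent of saturated pixels per spot, per the file headers. A value table the authors deposited gives log2 ratios, whose normalisation is not given in the sources used here and which centre near 0. Of their columns 20 could be tied to spots and served as an alternative. The other 7 (all IND columns and 1 each of CHR, BA, 3MC and NP) were not used.

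With R 4.3.3 and limma 3.58.1, background was corrected by normexp (offset 50) and each array normalised by loess; spots flagged -75 or lower were left out. A spot was saturated where at least 10% of its pixels were. Probes were named by accession, then symbol, then older symbol, which named 27662 of 41000. The 1 probe whose gene disagreed between files was not counted as a member. The 24 arrays of the shared platform had 1 fit with a mean per compound and IND had its own. Tests were two-sided, with p-values adjusted by Benjamini and Hochberg over all genes. A gene was tested if, for any compound, 2 of 3 arrays had a probe signal exceeding local background by over 2 of its SDs in either dye, and its brightest probe stood for it. Same-numbered arrays of different compounds did not deviate together (mean residual correlation 0.0037).

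Genes named are, per compound, up to 4 highest and 4 lowest that passed with all arrays in one direction, those called in 4 compounds or in both directions, isoform families, complex II, up to 2 highest and 2 lowest per pair, those never called, and up to 3 per other list. The other genes named were chosen after their values were seen. One gene is counted among the 85 but is not reported here by itself. The members and lists were chosen with earlier results of these data known. The fit was tested on simulated log ratios. Python 3.11.15 with pandas 2.3.3 and matplotlib 3.10.9 handled the tables and figures. The number of arrays limits the precision.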

Additional observations from a re-analysis of the deposited data

Results flagged for a closer look

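Differences between compounds that the contrasts of the limma fit called are listed by pair, as the first compound's mean log2 ratio minus the second's. For CHR minus BA they were 0.84 for UQCRC2, 0.82 for COX7B, -0.86 for ATP5F1D and -1.10 for COXFA4L2, and without BA array 1 they were 0.71, 0.59, -0.77 and -1.25. For BaP minus BF they were 2.49 for SDHC, 1.41 for UQCRC1, -0.88 for COXFA4 and -0.99 for COX7B. For BaP minus PH they were 1.60 for NDUFB3, 1.36 for NDUFB2, -0.87 for NDUFV1 and -0.94 for DMAC2L. The COXFA4L2 difference of CHR minus BA rests on a dim probe.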

How the results depend on the processing

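Over 13 kinds of alternative, 123 named calls gave 1830 values, of which 1762 kept direction and call, 66 kept the direction without passing, and 2 turned. Those 2 came with median centring, for BF, at 0.11 for ATP5F1B and 0.052 for SDHA. Median centring gave 44, 49, 60, 22, 38, 11, 28 and 3 genes that rose with BaP, CHR, BF, IND, DBA, 3MC, BA and NP. Over all genes it gave 3613, 2597, 4343, 1943, 1634, 774, 1070 and 626 in the same order. For the set it gave 2, 2, 1 and 0 that fell with CHR, BF, IND and DBA (2029, 3290, 1883 and 666 over all genes). It gave 42 and 4 genes of the set that differed for BaP minus BF and DBA minus 3MC. The adjusted p alone gave 56, 58, 62, 44, 33, 40, 39, 29 and 27 higher genes with BaP, CHR, BF, IND, DBA, 3MC, BA, PH and NP. It gave 9, 15, 18, 13, 22, 16, 5, 35 and 39 lower ones in the same order. For the pairs it gave 58 for CHR minus BA, 60 for BaP minus BF, 65 for BaP minus PH and 17 for DBA minus 3MC. Counts over all genes at the adjusted p alone were not made, so those numbers describe the set alone. The authors' deposited log2 ratios gave 9, 5, 0 and 8 genes that rose with DBA, 3MC, BA and NP and 5 that fell with DBA. Over all genes they gave 919 of 10485, 992 of 13681, 268 of 16062 and 1869 of 14306 that rose in the same order. With DBA 1396 of all genes fell. The mean of a gene's probes gave 1 that rose with BA and 1 each that fell with DBA and 3MC (326, 843 and 905 of all 17718 genes). Plain background subtraction gave 5 and 9 that rose with 3MC and NP (1133 and 1959 of all 17718 genes). Quantile scaling, added after seeing the data, gave 3 and 10 that rose and fell with NP, 1 that fell with 3MC and 23 for CHR minus BA. Counts over all genes under quantile scaling are not given here. It is not known which setting is nearer the truth, and the cause of these moves was not tested. Leaving out 1 array gave 0 to 3 genes that rose with BA, and the other counts stayed within 1.5 times. The array number as a replicate block left 24 genes that rose with BaP and changed no other call. It was not run for IND, whose numbers are those of 1 group, nor were the deposited ratios. Arrays of DBA, 3MC and NP, where 27.1% to 59.1% of spots were marked not found, carry the dimmest signal.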

Other observations

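SDHC stood at a median Cy3 percentile of 68.3 among all probes with NP, 79.0 with DBA and 79.8 with 3MC, and of 92.3 to 96.6 with the other compounds, while its log2 ratio passed with BF and PH and not with these 3. LONP1, a mitochondrial protease, fell with CHR (-1.17 ± 0.11) and rose with NP (1.19 ± 0.03), directions that NDUFV1 and ATP5F1D shared. ETFB, which passes electrons from fatty acid oxidation to ubiquinone, rose with DBA (1.97 ± 0.22), IND (1.71 ± 0.09), PH and BF (1.30 ± 0.14).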
